A study of Mus musculus with 26 samples.

Results

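Nos2, Arg1 and Arg2 encode the enzymes that compete for arginine in cells exposed to inflammatory signals. Their probe sets were taken from the array annotation wherever a member was the single gene symbol, without regard to any measured value. This gave 43 of 53857 single-symbol probe sets, namely 23 for Nos2, 10 for Arg1 and 10 for Arg2, and 3 of 5109 genes. Of those 5109 genes 5081 lie on chromosomes 1, 10, 11, 12 and 13, and most genes of other chromosomes were not analysed here, so shares of all genes and counts of listed genes below refer to this portion of the genome. Nos2 lies on mouse chromosome 11, Arg1 on chromosome 10 and Arg2 on chromosome 12, as RefSeq's table of assembly GRCm38.p6 lists them. The annotation used here places no probe set within its gene, so probe sets are named by identifier.

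Nos2 encodes the inducible nitric oxide synthase, which makes nitric oxide and citrulline from arginine. In mouse macrophages IFNγ acts through IRF1, together with NF-κB signals, to switch on the gene, and nitric oxide relaxes and can damage vessels. Arg1 is the cytosolic arginase, which splits arginine into urea and ornithine, is abundant in liver and is induced in myeloid cells by the cytokines IL-4 and IL-13. Arg2 is the mitochondrial arginase, found in kidney and in endothelium among other tissues, where it draws on the arginine that nitric oxide synthases also use.

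The study asked how IFNγ acts on the endothelial cells of established tumours. CD31+/CD146+ cells were sorted from collagenase-digested tissue of female mice, and about 500 pg of total RNA from 5000 to 15000 cells was amplified over 12 cycles for 26 whole-transcript arrays. MCA313 tumours grew in mice aged 4 to 6 months in which the IFNγ receptor is present on endothelial cells alone (PIG x Pdgfb-Cre x IFNγ-del, with Cre driven by Pdgfb), and their tumour cells were induced to make IFNγ for 0 h (3 arrays), 24 h (2 arrays) or 48 h (2 arrays). J558L is a mouse plasmacytoma line, here carrying an inducible IFNγ-GFP fusion. J558L tumours grew in Rag-/- mice aged 4 to 6 months, which lack mature T and B cells and carry the receptor on all cells. Tumour endothelium was taken 24 h (3 arrays) or 0 h (2 arrays) after induction, and kidney endothelium of J558L bearers 24 h (3 arrays) or 0 h (3 arrays) after induction. 16.113 tumours grew in Rag-/- mice aged 3 to 4 months with receptor on all cells. They were sampled 120 h after transfer of tumour-specific T cells that were IFNγ+/+ (3 arrays) or IFNγ-/- (5 arrays). The labels do not say whether replicates came from separate animals, so p-values measure only the spread between these arrays.

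All values are the deposited log2 expression values. The arrays fall into 4 sets that appear to have been normalized separately (MCA313 tumour, J558L tumour, J558L kidney and 16.113 tumour), so levels were compared within a set only. Background was not measured, and the array median, which lay between 5.62 and 6.46, serves as the yardstick of a low value. The defining endothelial gene Pecam1, which encodes CD31 and was used in the sort, lay between 13.46 and 13.99 on every array. The IFNγ-induced GTPase gene Irgm1 was higher by 1.56, 1.37, 1.16 and 2.10 on the log2 scale in MCA313 tumours at 24 h and 48 h, in J558L kidney and in 16.113 tumours (adjusted p from limma of 0.0328, 0.0467, 0.0395 and 8.92e-05). In J558L tumours it differed by 1.05 with an adjusted p of 0.241. In bulk RNA of a sorted population, fewer cells of a type and less RNA per cell cannot be told apart.

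The brightest Nos2 probe set, 17253730, had high signal in tumour endothelium of every model, also without induced IFNγ. It stood for the gene in the test across genes. It measured 12.29, 11.77 and 11.91 in MCA313 tumours at 0 h, 12.55 and 12.37 at 24 h and 12.51 and 12.55 at 48 h. Every induced MCA313 array lay above every 0 h array. In J558L tumours it measured 12.93, 12.94 and 12.61 at 24 h, against 12.25 and 12.45 at 0 h, again without overlap. In J558L kidney it measured 8.06, 8.74 and 8.84 at 24 h, against 8.57, 10.11 and 10.55 at 0 h, and replicate 1 at 0 h fell among the induced arrays. In 16.113 tumours it measured 11.47, 10.72 and 12.47 with IFNγ+/+ T cells, against 11.40, 10.96, 10.94, 10.91 and 10.66 with IFNγ-/- T cells, and the groups overlapped. Among the 23 Nos2 probe sets, 20 and 21 exceeded the array median on every MCA313 array at 24 h and 48 h, and 20 did so at 0 h. In J558L tumours 20 did so at 24 h and 19 at 0 h, in J558L kidney 4 at 24 h and 12 at 0 h, and in 16.113 tumours 18 with IFNγ+/+ and 12 with IFNγ-/- T cells.

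**Figure D1:**
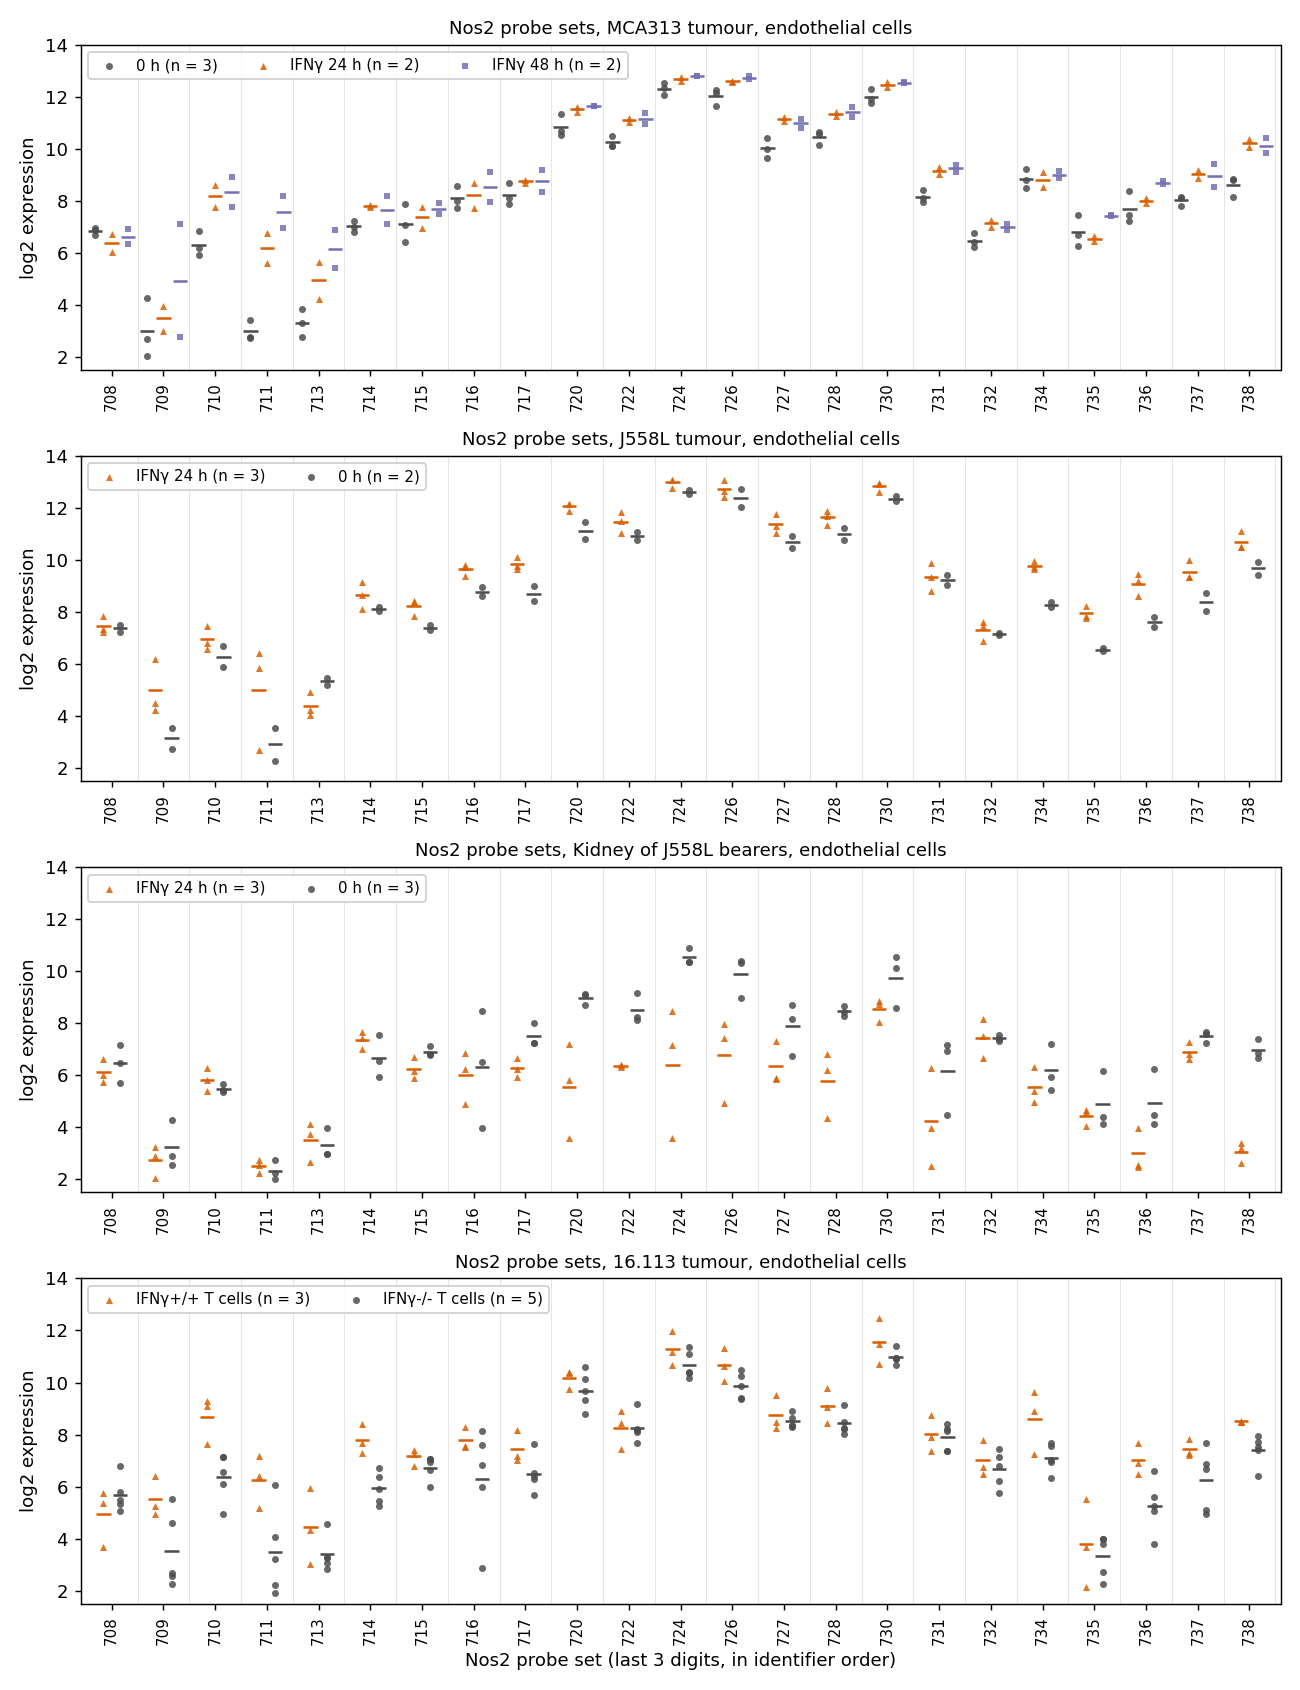
Log2 expression of the 23 Nos2 probe sets (x axis, last 3 digits of the identifier) on every array, with 1 panel per separately normalized set; points are arrays and short lines are group means. In J558L kidney 17253720, 17253722, 17253724, 17253726, 17253728 and 17253738 lie lower on every array at 24 h than at 0 h. In the MCA313 and J558L tumour panels most induced means lie at or above the 0 h means. The 16.113 panel has no 0 h group, and most means there lie higher with IFNγ+/+ than with IFNγ-/- T cells.

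At the level of the gene, Nos2 passed the test in none of the 9 comparisons (limma, Benjamini-Hochberg adjustment over 4386 genes, threshold 0.05), and had an unadjusted p under 0.05 in 2, J558L kidney and the tumour minus kidney response. The fitted log2 change of probe set 17253730 was 0.47 ± 0.45 (SE) in MCA313 tumours at 24 h, with an adjusted p of 0.816, where 0.684% of all genes were called. At 48 h it was 0.54 ± 0.45 with an adjusted p of 0.698, where 1.37% of genes were called. These comparisons share their 0 h arrays. In J558L tumours it was 0.48 ± 0.45 with an adjusted p of 0.957, where 0.547% of genes were called. In J558L kidney it was -1.19 ± 0.40 with an adjusted p of 0.131, where 3.17% of genes were called. In 16.113 tumours it was 0.58 ± 0.36 with an adjusted p of 0.375, where 7.36% of genes were called. The kidney value passed the test once replicate 1 at 0 h was left out, at -1.78 with an adjusted p of 0.00833. It also passed with the average of all 23 probe sets in place of the brightest, at -1.27 with an adjusted p of 0.00867, and with array weights, at -1.48 with an adjusted p of 0.00659. The average also passed in 16.113 tumours, at 0.95 with an adjusted p of 0.0207.

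In MCA313 tumours, where the endothelium alone can respond to IFNγ, most Nos2 probe sets measured higher after induction, but none passed the test over all probe sets. Of the 23, 20 had a fitted change above 0 at 24 h with a median of 0.67, and 22 did so at 48 h with a median of 0.81. Over all 53857 probe sets 45.3% and 45.7% had a change above 0, with medians of -0.06 and -0.05. At 24 h 16 Nos2 probe sets lay above 0 h on every array and none lay below, where 10.9% of all probe sets lay entirely above and 16.2% entirely below. At 48 h these numbers were 15 and 0, where the shares over all probe sets were 11.5% and 16.4%. None of the 23 was called at either time by limma's test at the probe-set level, where 0.0966% and 0.195% of probe sets were called. An unadjusted p under 0.05 was found for 5 at each time, where 8.51% and 9.19% of all probe sets had one.

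At 24 h the 3 widest differences of Nos2 in MCA313 tumours were at 17253711, 17253710 and 17253713, and at 48 h they were at the same 3. Nos2 probe set 17253711 measured 2.76, 3.43 and 2.74 at 0 h, 5.61 and 6.76 at 24 h and 8.20 and 6.97 at 48 h. All induced arrays lay more than 2 units above the highest 0 h array. Its fitted change was 3.21 ± 1.01 at 24 h and 4.61 ± 1.01 at 48 h, with adjusted p from limma of 0.286 and 0.0660, and its size is uncertain because the 0 h level lies below the array medians. Nos2 probe set 17253713 measured 3.84, 2.76 and 3.31 at 0 h, 4.24 and 5.63 at 24 h and 6.86 and 5.42 at 48 h. Every induced array lay above every 0 h array, and the fitted change was 1.63 ± 0.69 and 2.84 ± 0.69, with adjusted p of 0.505 and 0.103. Its 0 h and 24 h levels lie below the array medians, so the size of this change is uncertain too. Nos2 probe set 17253710 measured 6.18, 6.83 and 5.92 at 0 h, 7.77 and 8.59 at 24 h and 8.90 and 7.75 at 48 h, above the array median throughout. The fitted change was 1.87 ± 0.59 and 2.02 ± 0.59, with adjusted p of 0.283 and 0.198. Nos2 probe set 17253738 measured 8.81, 8.14 and 8.84 at 0 h, 10.07 and 10.38 at 24 h and 10.41 and 9.83 at 48 h. Here too every induced array lay above every 0 h array, by a fitted 1.62 ± 0.39 and 1.52 ± 0.39, with adjusted p of 0.118 and 0.124. At 48 h 1 Nos2 probe set passed the test under each of 2 other settings, 17253711 with a trended and robust variance prior and 17253713 with array weights.

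**Figure D2:**
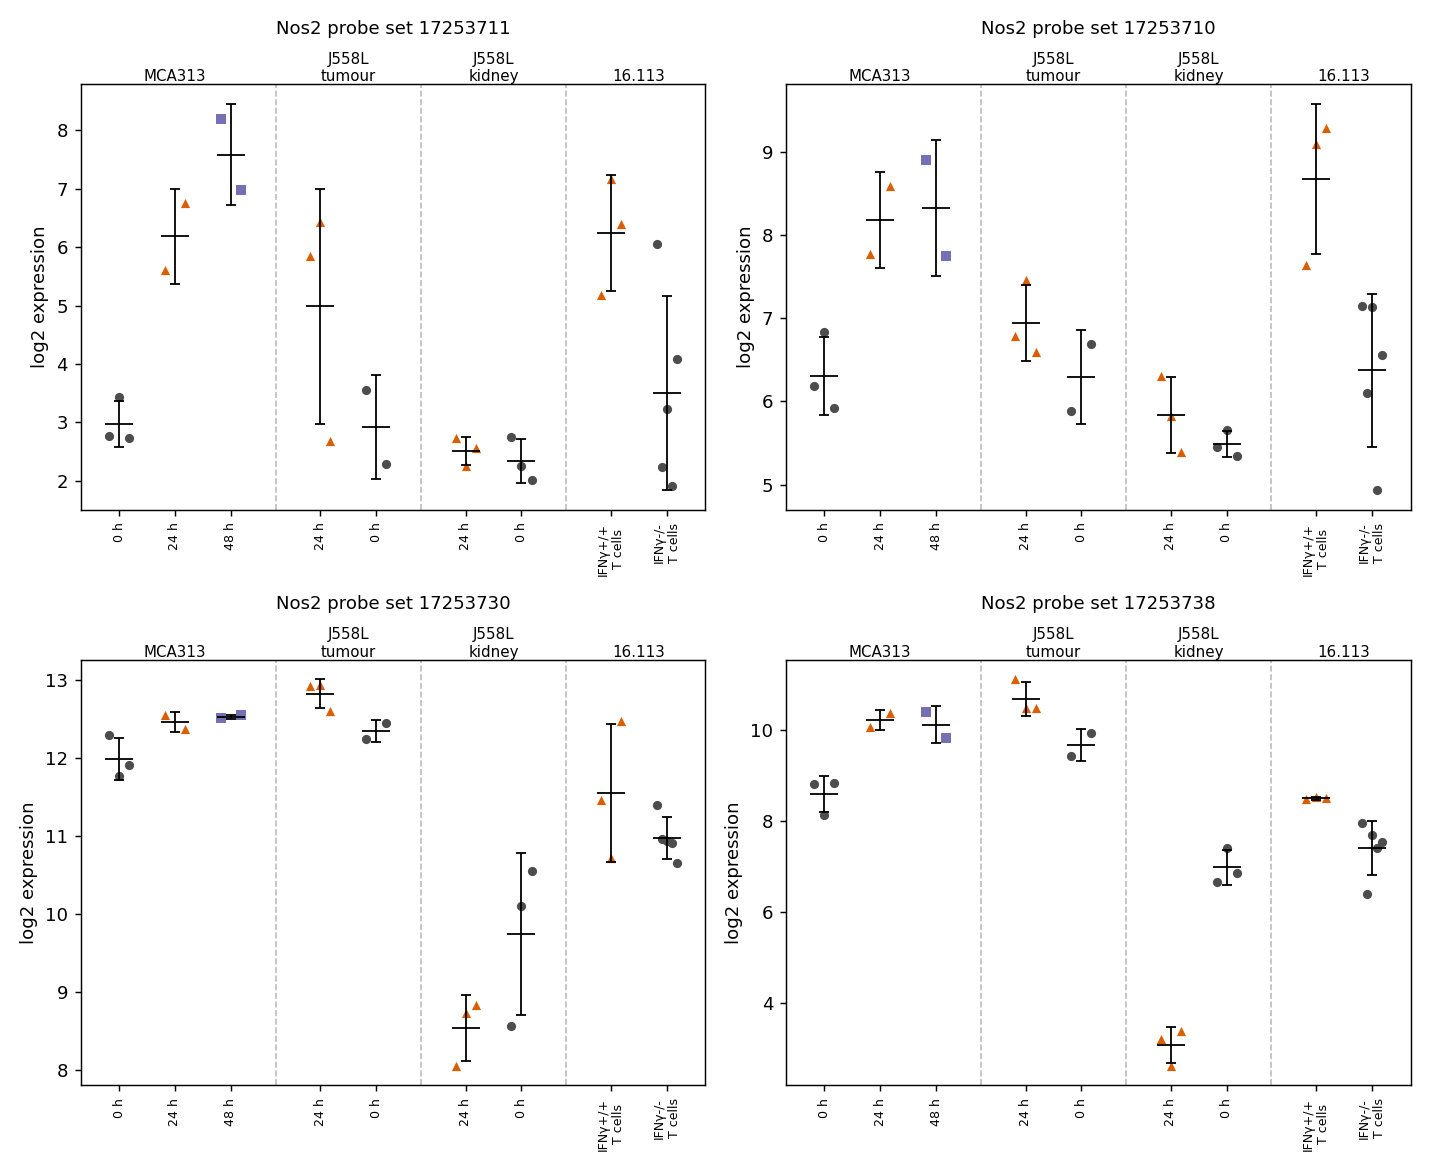
Log2 expression of 4 Nos2 probe sets on every array of the 9 groups; points are arrays, horizontal bars are means and whiskers are 1 SD, and dashed lines part the separately normalized sets, between which levels are not compared. Probe sets 17253711 and 17253710 lie higher after induction in MCA313 tumours, and 17253738 lies between 2.62 and 3.39 in J558L kidney at 24 h, against 6.67 to 7.41 at 0 h.

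Between 48 h and 24 h the Nos2 probe sets of MCA313 tumours moved little. The fitted change had a median of 0.14 with 18 of 23 above 0, against a median of 0.00 with 50.2% above 0 over all probe sets. No Nos2 probe set was called or had an unadjusted p under 0.05 by limma, where 0.00928% of probe sets and 0.0684% of genes were called. Over all probe sets 5.31% had such an unadjusted p. On both 48 h arrays 6 lay above both 24 h arrays and none lay below, where 15.9% and 16.1% of all probe sets did so. Of 23 listed myeloid markers 14 were measured and 13 passed the filter on low values, and these had a mean level of 6.35 to 6.75 at 0 h, 6.85 to 7.26 at 24 h and 7.12 to 7.27 at 48 h in these tumours, without overlap between 0 h and either later time. Fcgr4, a myeloid Fc receptor gene, rose by 3.67 at 24 h and 3.33 at 48 h, with adjusted p from limma of 0.0161 and 0.0249, and the other 12 were not called at either time. Among those 12, Cd68 differed by 0.32 and 0.34, Lyz2 by -0.50 and 0.02 and Ptprc by 0.08 and -0.20. The 7 measured of 12 T cell markers ran from 6.32 to 6.46 at 0 h, 6.92 to 7.26 at 24 h and 6.87 to 7.35 at 48 h. Of these Ctla4 was called, higher by 3.73 and 4.71, whereas the median change of the 7 was 0.22 at 24 h and -0.15 at 48 h. The 4 measured of 19 endothelial markers ran from 12.29 to 12.49 at 0 h, 11.93 to 12.03 at 24 h and 11.43 to 12.06 at 48 h. Among them Sele, the gene of E-selectin, differed by -1.61 and -2.24 and was called at 48 h, whereas Pecam1 differed by -0.06 and -0.12 and Icam2 by 0.17 and 0.28. The number of myeloid markers below the array median on every array was 4 at 0 h, 2 at 24 h and 0 at 48 h. Their part in the Nos2 values was not tested.

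In J558L tumours 22 of the 23 Nos2 probe sets had a fitted change above 0 at 24 h, with a median of 0.66, against 47.1% and a median of -0.03 over all probe sets. On all 24 h arrays 14 lay above both 0 h arrays and 1 lay below, where 11.5% and 14.6% of all probe sets did so. None was called by limma at the probe-set level, where 0.0854% were. An unadjusted p under 0.05 was found for 4, where 5.51% of all probe sets had one. The widest difference was at Nos2 probe set 17253711, which measured 5.84, 6.43 and 2.69 at 24 h, against 3.55 and 2.29 at 0 h. One 24 h array fell between the 0 h arrays, and all 5 values lie below or near the array median. Nos2 probe set 17253734 measured 9.73, 9.95 and 9.64 at 24 h, against 8.19 and 8.37 at 0 h. The 24 h values were close together and higher by a fitted 1.49 ± 0.57, with an adjusted p of 0.720. Nos2 probe set 17253738 measured 11.13, 10.48 and 10.48 at 24 h, against 9.43 and 9.93 at 0 h, a fitted 1.02 ± 0.39 with an adjusted p of 0.700. Nos2 probe set 17253713 was the one that lay lower, at 4.92, 4.04 and 4.25 against 5.45 and 5.21, below the array median on all 5 arrays. The 5 measured of 10 plasma cell markers, a class to which the J558L line itself belongs, averaged 9.84 to 10.24 at 24 h and 9.44 to 9.60 at 0 h. Irf4 alone of the 5 was called, higher by 2.90 with an adjusted p of 0.00956, and the median change of the 5 was -0.09 with 2 above 0. The same 5 markers averaged 8.83 to 9.23 in MCA313 tumours at 0 h. They averaged 9.80 to 9.84 there at 24 h and 9.54 to 9.99 at 48 h. Irf4 alone was called in MCA313 tumours too, higher by 3.39 at 24 h and 3.04 at 48 h. In J558L kidney it differed by -0.05 and was not called. In J558L tumours the myeloid markers averaged 7.54 to 7.80 at 24 h and 7.54 to 7.62 at 0 h. The part of either list in the Nos2 values was not tested.

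In kidney endothelium of J558L bearers Nos2 fell at 24 h at 6 of its 23 probe sets and rose at none, in the test over all probe sets, where 0.412% of all probe sets were called lower and 0.451% higher. The fitted change was below 0 at 18 of the 23, with a median of -0.65 against -0.03 over all probe sets. On every 24 h array 9 lay below every 0 h array, where 9.73% of all probe sets did so, and none lay above, where 7.62% did.

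Nos2 probe set 17253738 measured 3.20, 2.62 and 3.39 in kidney at 24 h, against 6.67, 7.41 and 6.87 at 0 h. It fell by 3.91 ± 0.35 on the log2 scale, with an adjusted p of 7.90e-06 (limma, over 53857 probe sets). The 24 h level lies below the array median, so the size of the fall is uncertain. Nos2 probe set 17253724 measured 8.46, 3.60 and 7.15 at 24 h, against 10.90, 10.36 and 10.34 at 0 h. The 24 h arrays were lower and spread over nearly 5 units, and the fitted change was -4.14 ± 0.72 with an adjusted p of 0.00697. Nos2 probe set 17253720 measured 7.21, 3.60 and 5.81, against 8.70, 9.13 and 9.08, a fitted -3.43 ± 0.58 with an adjusted p of 0.00611. Replicate 2 at 24 h was again the lowest array. Nos2 probe set 17253726 measured 7.45, 4.94 and 7.98, against 8.97, 10.31 and 10.40, a fitted -3.10 ± 0.57 with an adjusted p of 0.00945. Nos2 probe set 17253728 measured 6.81, 4.35 and 6.19, against 8.27, 8.68 and 8.43, a fitted -2.67 ± 0.45 with an adjusted p of 0.00589. Replicate 2 at 24 h held the lowest value of both. Nos2 probe set 17253722 measured 6.39, 6.41 and 6.33, against 9.18, 8.13 and 8.26, a fitted -2.15 ± 0.37 with an adjusted p of 0.00697. Here the 3 arrays at 24 h were within 0.1 of each other and near the kidney array medians of 6.33 to 6.40. At each called probe set other than 17253738, 1 or 2 of the 3 arrays at 24 h lay above the array median. The sizes of these falls are therefore uncertain too.

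The other 17 Nos2 probe sets were not called in kidney, and 12 of them had a fitted change below 0. Nos2 probe set 17253717 measured 6.23, 5.93 and 6.68 at 24 h, against 7.26, 8.02 and 7.24 at 0 h, a fitted -1.22 ± 0.41 with an adjusted p of 0.224. Nos2 probe set 17253736 measured 3.98, 2.56 and 2.49 at 24 h, against 4.46, 4.14 and 6.26 at 0 h, a fitted -1.94 ± 0.60 with an adjusted p of 0.169. These and 17253715, with a fitted -0.65 ± 0.36, also lay lower on every 24 h array. Nos2 probe sets 17253731 and 17253727 had fitted changes of -1.93 ± 0.71 and -1.54 ± 0.45 with overlapping groups and adjusted p of 0.294 and 0.137. Those of 17253708, 17253709, 17253716, 17253734, 17253735 and 17253737 ran from -0.62 to -0.33, and those of 17253710, 17253711 and 17253713 from 0.18 to 0.35, all with overlap. Nos2 probe set 17253732 measured 6.67, 7.53 and 8.16 at 24 h, against 7.41, 7.55 and 7.30 at 0 h, with complete overlap. Nos2 probe set 17253714 measured 7.65, 7.03 and 7.43 at 24 h, against 6.56, 5.92 and 7.56 at 0 h. These calls rest on the spread shared by all 26 arrays. With the 6 kidney arrays fitted alone none of the 6 probe sets passed, at adjusted p of 0.0653 for 17253738 and 0.140 to 0.314 for the others. With each array left out in turn from the full fit, 5 to 8 Nos2 probe sets were called lower.

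Endothelial markers averaged 12.70 to 12.79 in kidney at 24 h and 12.58 to 12.91 at 0 h, and myeloid markers 7.33 to 7.43 at 24 h and 7.08 to 7.20 at 0 h. The 2 measured of 18 kidney tubule markers, the monooxygenase gene Fmo1 and the anion exchanger gene Slc4a1, averaged 9.92 to 10.55 at 24 h and 10.39 to 11.01 at 0 h. Both stayed above the array median on every kidney array. A mean above the array median was not particular to kidney, as the 2 averaged 8.06 to 9.67 on the tumour arrays. Their median change in kidney was -0.51, and neither change was above 0 or called by limma there. Of the 2, Fmo1 differed by -0.88 ± 0.33 with an adjusted p of 0.193. The part of these markers in the Nos2 values was not tested.

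The response of Nos2 to 24 h of induction was more positive in J558L tumour than in J558L kidney at 21 of the 23 probe sets, with a median difference of 2.04, against 49.8% above 0 over all probe sets. The difference itself passed the test for Nos2 probe set 17253738, at 4.93 ± 0.52 with an adjusted p of 0.000192, and 0.00371% of all probe sets were called. For 13 probe sets, or 56.5%, the unadjusted p was under 0.05, against 4.63% of all probe sets. The brightest probe set differed by 1.67 ± 0.60 with an adjusted p of 0.665 over genes, where 0.0228% of genes were called, and the average of the 23 differed by 2.05 with an adjusted p of 0.0384. The 24 h response of MCA313 tumours minus that of J558L tumours had a median of -0.01 over the Nos2 probe sets, and the response of 16.113 tumours minus that of J558L tumours had a median of 0.09. No Nos2 probe set passed limma's test in either, where 0.00186% of probe sets were called for MCA313 and 0.0% for 16.113. An unadjusted p under 0.05 was found for 1 and 3 Nos2 probe sets, and for 3.51% and 5.55% of all probe sets. All 3 differences share the J558L tumour arrays. The tumour minus kidney difference treats tumour and kidney arrays as independent, and whether any came from the same animal is not given.

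In 16.113 tumours Nos2 was higher with IFNγ+/+ T cells than with IFNγ-/- T cells at 2 of its 23 probe sets and lower at none, where 0.802% of all probe sets were called higher and 1.48% lower. The fitted change was above 0 at 21 of the 23, with a median of 0.81, against 47.1% and -0.03 over all probe sets. Nos2 probe set 17253710 measured 7.64, 9.10 and 9.29 with IFNγ+/+ T cells, against 7.15, 6.10, 7.13, 4.93 and 6.56 with IFNγ-/- T cells. It rose by 2.30 ± 0.47, with an adjusted p of 0.0129. Nos2 probe set 17253714 measured 7.31, 7.69 and 8.42, against 5.44, 5.25, 6.38, 5.92 and 6.71, and rose by 1.87 ± 0.38, with an adjusted p of 0.0139. The groups did not overlap at either. The groups also did not overlap at 17253738, which measured 8.48, 8.54 and 8.50 against 7.95, 6.40, 7.70, 7.42 and 7.54, a fitted 1.11 ± 0.31 with an adjusted p of 0.0646. No Nos2 probe set lay lower on every array. Of all probe sets 2.68% lay entirely above and 3.98% entirely below.

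Nos2 probe set 17253711 measured 5.18, 7.16 and 6.39 with IFNγ+/+ T cells, against 6.06, 2.23, 3.23, 1.91 and 4.08 with IFNγ-/- T cells. Replicate 1 with IFNγ-/- T cells fell among the IFNγ+/+ arrays, and the fitted 2.74 ± 0.81 had an adjusted p of 0.0820. Without that replicate 5 Nos2 probe sets were called higher, and without replicate 3 of the IFNγ+/+ arrays none was. None was called with array weights or with the 8 arrays of 16.113 fitted alone. Endothelial markers averaged 11.37 to 12.06 with IFNγ+/+ and 12.11 to 12.19 with IFNγ-/- T cells. Sele differed by -1.26 with an adjusted p of 0.0522, Icam2 by -0.03 and Pecam1 by -0.04. Myeloid markers averaged 7.00 to 7.87 with IFNγ+/+ and 6.84 to 7.98 with IFNγ-/- T cells. Their part in the Nos2 values was not tested.

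**Figure D3:**
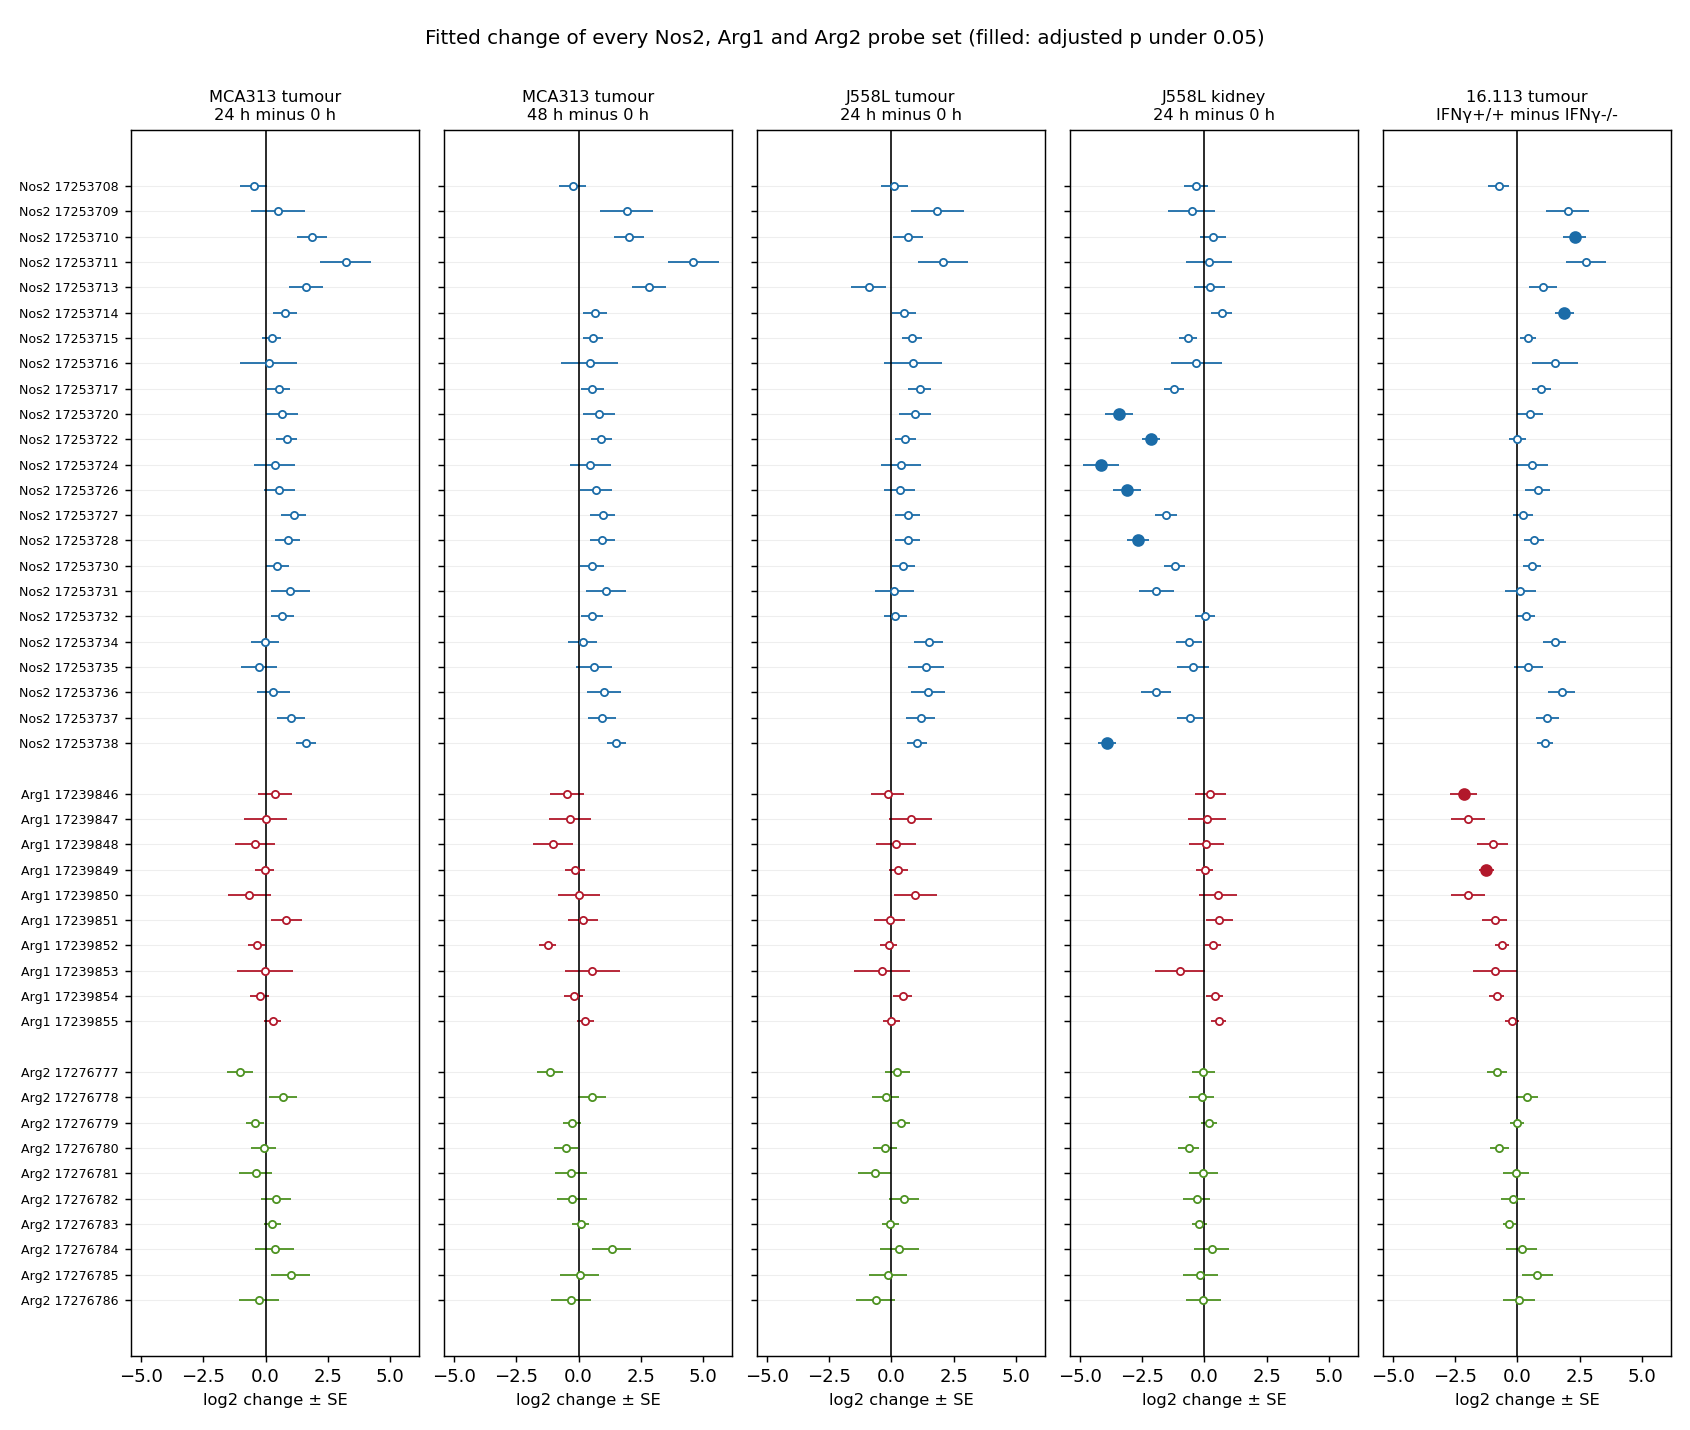
Fitted log2 change (x axis, with SE bars) of each of the 43 probe sets (y axis) in 5 comparisons, with filled points where the adjusted p was under 0.05. The filled points are 6 Nos2 probe sets below 0 in J558L kidney and, in 16.113 tumours, 2 Nos2 probe sets above 0 and 2 Arg1 probe sets below 0.

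In 16.113 tumours Arg1 fell at 2 of its 10 probe sets with IFNγ+/+ T cells, relative to IFNγ-/- T cells, and rose at none, where 1.48% of all probe sets were called lower and 0.802% higher. All 10 had a fitted change below 0, with a median of -0.96, where 47.1% of all probe sets were above 0. At 1 of them, 17239852, every IFNγ+/+ array lay below every IFNγ-/- array, where 3.98% of all probe sets did so. Arg1 probe set 17239846 measured 8.0, 7.14 and 6.07 with IFNγ+/+ T cells, against 10.30, 7.39, 10.36, 8.64 and 9.46 with IFNγ-/- T cells. It fell by 2.16 ± 0.55, with an adjusted p of 0.0416, although replicate 2 with IFNγ-/- T cells lay within the range of the IFNγ+/+ arrays. Arg1 probe set 17239849 measured 2.30, 2.50 and 2.08, against 3.75, 2.46, 4.09, 3.19 and 4.21, and fell by 1.25 ± 0.31, with an adjusted p of 0.0388. It lay below the array median on all 26 arrays, so the size of this change is uncertain.

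The brightest Arg1 probe set, 17239847, measured 8.94, 7.54 and 7.03 with IFNγ+/+ T cells, against 10.75, 8.15, 10.98, 8.98 and 10.29 with IFNγ-/- T cells. Replicates 1, 3 and 5 with IFNγ-/- T cells were the highest arrays, and the groups overlapped through replicate 2. The fitted change of the gene was -1.99 ± 0.68, or 3.99-fold lower, with an adjusted p of 0.0788 over 4386 genes, and so did not pass. It passed without replicate 1 of the IFNγ+/+ arrays, at -2.54 with an adjusted p of 0.0312, without replicate 2 of the IFNγ-/- arrays, at -2.41 with an adjusted p of 0.0305, and with the average of the 10 probe sets, at -1.19 with an adjusted p of 0.0208. Arg1 probe set 17239850 measured 6.22, 6.10 and 3.23, against 8.08, 5.29, 8.63, 6.04 and 7.84, a fitted -1.99 ± 0.68 with an adjusted p of 0.143. Arg1 probe set 17239851 measured 7.11, 7.02 and 6.08, against 8.10, 6.63, 9.05, 5.93 and 8.57, where replicates 1, 3 and 5 with IFNγ-/- T cells were again the highest. Arg1 probe sets 17239848, 17239853, 17239854 and 17239855 had fitted changes of -1.0, -0.91, -0.84 and -0.21, all with overlap, and that of 17239852 was -0.61 with an adjusted p of 0.304.

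The Arg1 calls in 16.113 tumours depended on single arrays. Neither probe set was called without replicate 2 or 3 of the IFNγ+/+ arrays, without replicate 1, 3 or 5 of the IFNγ-/- arrays, with array weights or with the 16.113 arrays fitted alone. Myeloid markers averaged 7.93, 7.51, 7.98, 6.84 and 7.65 on the IFNγ-/- arrays in replicate order. On the IFNγ+/+ arrays they averaged 7.87, 7.49 and 7.00. Of the 13 myeloid markers tested none was called by limma and 5 had a change above 0. Their median change was -0.10, against -0.03 over all genes. Among the 13, Lyz2, the macrophage lysozyme gene, differed by -1.16 ± 0.68 with an adjusted p of 0.338. Only 1 of the 13 was below the array median on every array of each group, and the part of these markers in the Arg1 values was not tested.

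**Figure D4:**
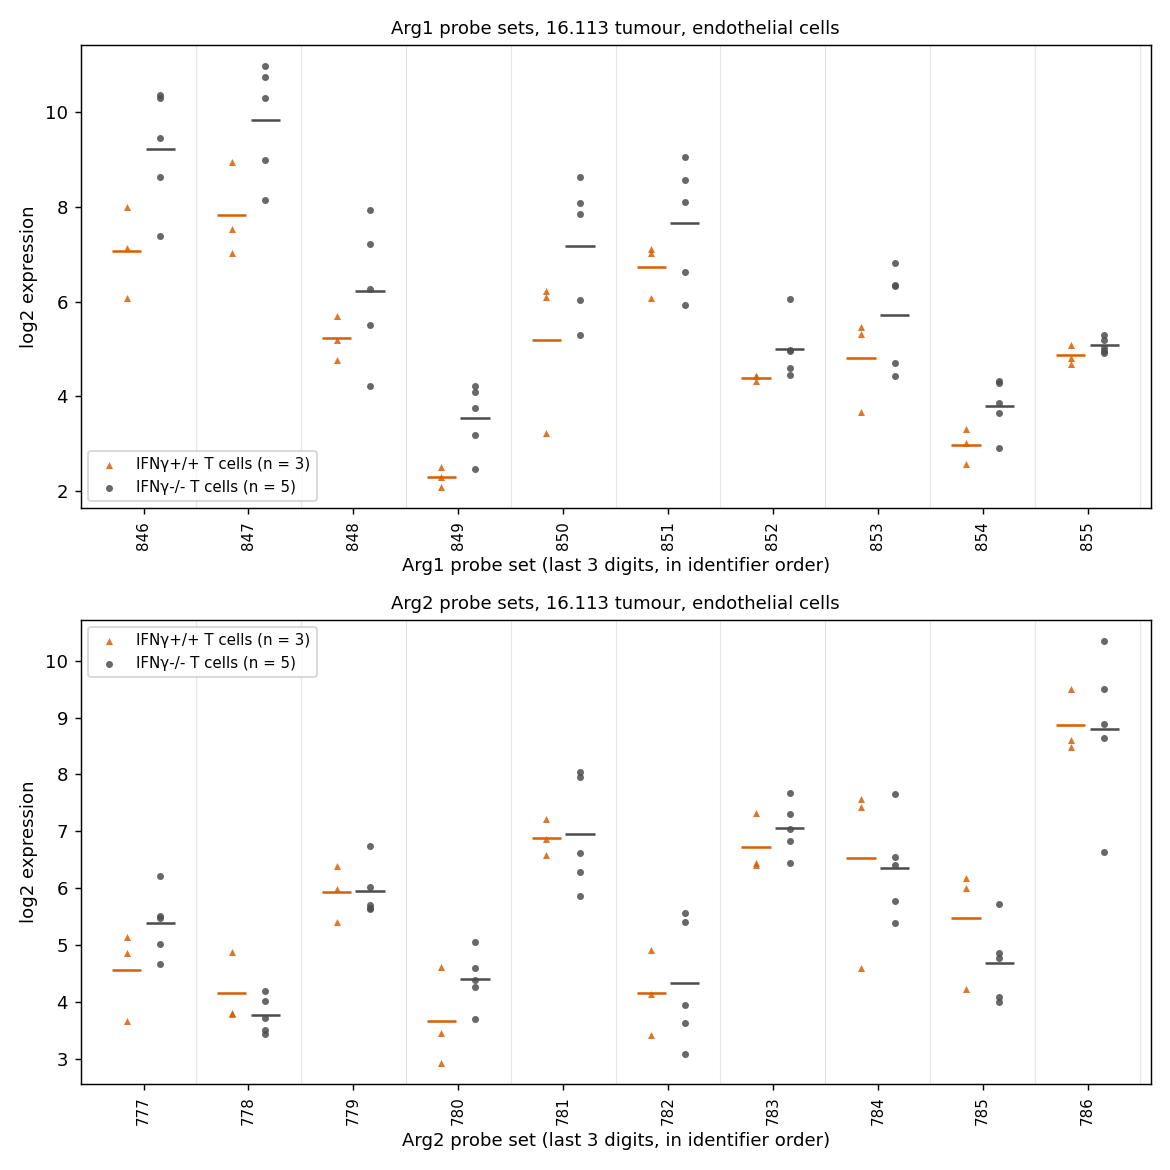
Log2 expression of the 10 Arg1 (upper panel) and 10 Arg2 (lower panel) probe sets in 16.113 tumours; points are arrays, short lines are group means, and each axis runs over probe sets in identifier order. All 10 Arg1 means are lower with IFNγ+/+ T cells, whereas Arg2 means lie on either side.

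In the other models Arg1 did not change past the test. Arg1 probe set 17239847 measured 6.19, 5.58 and 6.67 at 0 h, 5.00 and 7.30 at 24 h and 4.84 and 6.78 at 48 h in MCA313 tumours. Its 24 h and 48 h replicates spread by about 2 units to both sides of the 0 h values. It measured 7.68, 6.92 and 8.59 at 24 h in J558L tumours, against 6.04 and 7.89 at 0 h, a fitted 0.77 ± 0.84 with an adjusted p of 0.978. In J558L kidney it measured 6.55, 5.67 and 5.69 at 24 h, against 5.72, 6.37 and 5.54 at 0 h, with no separation. In J558L tumours 2 of the 10 Arg1 probe sets exceeded the array median on every array of each group. That number was 0 or 1 in the groups of MCA313 tumours and J558L kidney and 3 in both groups of 16.113 tumours.

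None of the 10 Arg1 probe sets was called by limma in MCA313 or J558L samples. In MCA313 tumours 1 had an unadjusted p under 0.05 at 48 h against 0 h, and 1 at 48 h against 24 h. The shares over all probe sets were 9.19% and 5.31%, and the other Arg1 comparisons of these samples had none. The median changes of the 10 were -0.03 and -0.17 in MCA313 tumours at 24 h and 48 h, 0.08 in J558L tumours and 0.29 in J558L kidney, where 9 of 10 were above 0. Arg1 probe set 17239852 lay lower at 48 h in MCA313 tumours, at 4.30, 4.76 and 4.65 at 0 h, 4.06 and 4.36 at 24 h and 3.25 and 3.42 at 48 h. All values lie below the array median, and the fitted change at 48 h of -1.24 ± 0.35 had an adjusted p of 0.181. The response of 16.113 tumours minus that of J558L tumours was below 0 at all 10 Arg1 probe sets, with a median of -1.23. None passed limma's test and 5 had an unadjusted p under 0.05, where 5.55% of all probe sets did. The brightest differed by -2.76 ± 1.08 with an adjusted p of 0.692.

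Arg2 passed limma's test in no comparison, at the level of the gene or of any of its 10 probe sets. Only 1 Arg2 probe set had an unadjusted p under 0.05, in MCA313 tumours at 48 h against 0 h, where 9.19% of all probe sets did. The brightest Arg2 probe set, 17276783, measured 6.13, 6.24 and 6.15 at 0 h, 6.41 and 6.47 at 24 h and 6.27 and 6.24 at 48 h in MCA313 tumours. The fitted change was 0.27 ± 0.32 at 24 h and 0.08 ± 0.32 at 48 h, with adjusted p of 0.851 and 0.954. In J558L tumours it measured 5.90, 6.61 and 5.89 at 24 h, against 6.09 and 6.28 at 0 h. The groups overlapped, and the fitted change was -0.05 ± 0.32. In J558L kidney it measured 6.63, 6.45 and 6.70 at 24 h, against 7.05, 6.34 and 6.98 at 0 h, a fitted -0.20 ± 0.28. In 16.113 tumours it measured 6.44, 6.40 and 7.33 with IFNγ+/+ T cells, against 7.67, 7.30, 6.83, 6.45 and 7.04 with IFNγ-/- T cells, with overlap. The fitted change there was -0.33 ± 0.25 with an adjusted p of 0.480.

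Other Arg2 probe sets told the 16.113 samples no further apart. Arg2 probe set 17276786 measured 8.48, 8.60 and 9.51 with IFNγ+/+ T cells, against 10.35, 6.64, 9.51, 8.64 and 8.88 with IFNγ-/- T cells, all above the array median. On the arrays of the other 3 sets it exceeded the array median once in 18 arrays, at 7.43 in J558L kidney at 0 h. Arg2 probe sets 17276781, 17276783 and 17276786 lay above the array median on all 8 arrays of 16.113 tumours. The 10 Arg2 probe sets had a median change of -0.04 between the T cell groups, with 4 above 0. They ran from -0.82 at 17276777 to 0.79 at 17276785, with 17276778, 17276779, 17276780, 17276782 and 17276784 between them. After quantile normalization of all arrays that median was 0.03, and no other median of the 3 genes changed its sign between these scalings. The smallest adjusted p of an Arg2 probe set was 0.358 in 16.113 tumours.

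The probe sets of a gene did not all vary together over the 26 arrays once each set's mean was taken off. With the brightest Nos2 probe set the others had Pearson r from -0.16 to 0.86, with the brightest Arg1 probe set from 0.12 to 0.84, and with the brightest Arg2 probe set from -0.20 to 0.06. The genes whose brightest probe sets varied most like that of Nos2 were Qsox1 (r = 0.80), Ppp1r13b (r = 0.77) and Slc38a6 (r = 0.73). For Arg1 they were Strn3 (r = 0.71), Mfsd11 (r = 0.67) and Bpifc (r = 0.66), and for Arg2 Krt23 (r = 0.66), Gm5082 (r = 0.62) and Il23a (r = 0.62). The median r of all other genes was -0.02 for Nos2 and 0.03 for both arginases. These are descriptions over 26 arrays that share groups, sets and amplification.

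Of 35 listed genes of the arginine and nitric oxide pathway 11 were measured, the 3 enzymes among them, and none passed limma's test in any of the 9 comparisons. Of their 99 results 7 had an unadjusted p under 0.05. Over all 4386 genes, 131 to 945 had one in each of the 9 comparisons, which serves as background for the lists below too. Apart from the 3 enzymes, the widest changes were those of Gamt, which makes creatine from an arginine product, at -1.04 in J558L kidney, and of Cps1, the carbamoyl phosphate synthetase of the urea cycle, at 0.62 in J558L tumours. The median change of the 11 ran from -0.25 in J558L kidney to 0.05 in MCA313 tumours at 48 h over the 5 comparisons with a control, against 0.01 and -0.02 over all genes. Of 17 polyamine genes, which act on the ornithine that arginases release, 7 were measured and none passed, with 9 of 63 results at an unadjusted p under 0.05. Their median change was -0.26 in MCA313 tumours at 24 h, -0.19 in J558L tumours and -0.26 in 16.113 tumours, with 1 of the 7 above 0 in each, against -0.01, -0.01 and -0.03 over all genes. It was -0.14 in MCA313 tumours at 48 h and 0.10 in J558L kidney. The widest changes among them were those of Amd2, an S-adenosylmethionine decarboxylase gene, at -0.95 in MCA313 tumours at 48 h, and of Sat2, a family member of the polyamine acetyltransferases, at -0.86 in MCA313 tumours at 24 h. Odc1, the ornithine decarboxylase that acts directly on ornithine, was singled out after its values were seen, and was the 1 gene above 0 in those 3 comparisons, at 0.13 in MCA313 tumours at 24 h, 0.23 in J558L tumours and 0.01 in 16.113 tumours. Of 19 cofactor and partner genes of nitric oxide synthases 2 were measured and neither passed, with 0 of 18 results at an unadjusted p under 0.05. They were Hsp90aa1, a chaperone of the synthases, and Pcbd1, which recycles tetrahydrobiopterin, and the widest change was that of Pcbd1 at -0.33 in J558L tumours.

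Of 17 listed genes of the signalling around Nos2 induction, which include inhibitors such as Socs3, 6 were measured. Irf1, the transcription factor that IFNγ induces ahead of Nos2 in mouse macrophages, rose by 1.06 ± 0.24 in MCA313 tumours at 48 h and by 1.83 ± 0.20 in 16.113 tumours, with adjusted p from limma of 0.0336 and 8.03e-06. At 24 h it differed by 1.02 ± 0.24 in MCA313 tumours with an adjusted p of 0.0527. In J558L tumour and kidney it differed by 0.46 and 0.42, with adjusted p of 0.721 and 0.407. Socs3, a feedback inhibitor of cytokine signalling, rose by 1.63 ± 0.19 and 1.17 ± 0.19 in MCA313 tumours at 24 h and 48 h and by 1.25 ± 0.19 in J558L tumours, with adjusted p of 7.55e-05, 0.00243 and 0.00283. Il1r1, a receptor for interleukin-1, fell by 2.10 ± 0.51 in 16.113 tumours with an adjusted p of 0.0139, and its change was below 0 in the other comparisons with a control. Ifngr1, Nfkbia and Rel were not called in any comparison. Of 14 signals that induce arginases 5 were measured (Stat6, Stat3, Il4, Il13 and Hif1a) and none was called, with 1 of 45 results at an unadjusted p under 0.05. The widest changes were those of Il4, the gene of IL-4, at 0.38 in J558L kidney, and of Stat3, a transcription factor of the IL-6 family of cytokines, at 0.31 in 16.113 tumours.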

How the data were processed

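Expression was measured on 26 whole-transcript arrays, 1 per sample of sorted mouse endothelial cells. The authors deposited log2 values that they had already normalized and summarized, 65535 probe sets in all, which ran from 1.40 to 14.34. Of the genes with a symbol of their own, 5081 of 5109 lie on chromosomes 1, 10, 11, 12 and 13, so most of the genome was not analysed here. How they normalized them is not given. The submitters' processing notes name 2 tools, limma and Affymetrix Expression Console, and no version of either. Exact values recurred between arrays within 4 sets (1.24% to 7.53% of values) and almost never between them, hence levels were compared within sets only.

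The 766 probe sets of several symbols and the 10912 without a symbol were left out. Of the annotated symbols 4618 were current in RefSeq, 494 were synonyms and 8 had no match. Each gene was represented by the probe set with the highest mean over 26 arrays and kept if it exceeded the array's 50th percentile in at least 2 arrays (4386 genes). All 3 members were kept. A linear model of 9 group means was fitted in limma 3.58.1 (R 4.3.3, statmod 1.5.0), once over these genes and once over all 53857 probe sets without a filter. Moderated two-sided tests used Benjamini-Hochberg adjustment per comparison at 0.05. Several groups hold 2 arrays, so all groups shared the estimate of spread. The number of arrays limits the precision.

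Members, lists and tests were chosen with earlier results of these data known. All 43 probe sets of the members are named or plotted, with list members past the test or else up to 2 with the largest change, and the 3 genes most like each member. The fit was tested on simulated data with known changes. Alternatives were the filter, quantile normalization, the mean over all probe sets of each gene, a trended and robust variance prior, array weights, a replicate block, the arrays of the compared sets alone, and each array left out. No sequence is printed, and sequences of the 3 genes were not used here.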

Additional observations from a re-analysis of the deposited data

Results flagged for a closer look

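Nos2 probe set 17253713 measured 4.58 in replicate 1 with IFNγ-/- T cells in 16.113 tumours, a sample far from the other 4, which measured 3.24, 3.07, 2.82 and 3.30. All 5 values lie below the array median. The rule needs at least 4 arrays, so it was applied to the 43 probe sets in this group alone. They share the same 5 arrays and are not independent. Where chance alone marks about 1 in 20, a single such sample among 43 is within that number.

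Nos2 probe set 17253738 showed a difference between tissues in the response to 24 h of IFNγ in J558L bearers, by the test of the difference itself. The response of J558L tumour minus that of J558L kidney was 4.93 ± 0.52 on the log2 scale, with an adjusted p from limma of 0.000192. Its direction held on all 11 arrays: each tumour array at 24 h lay above each at 0 h, and each kidney array at 24 h lay below each at 0 h.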

How the results depend on the processing

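The 27 results of the 3 genes in 9 comparisons were refitted 408 times. None passed the test as reported, so that no call could be lost, and 8 refits passed it. With the mean over all probe sets of each gene these were Nos2 in J558L kidney (-1.27), in 16.113 tumours (0.95) and in the tumour minus kidney response (2.05), and Arg1 in 16.113 tumours (-1.19). With array weights Nos2 in kidney was -1.48. With each array left out, Nos2 in kidney ran from -1.78 to -0.79 and Arg1 in 16.113 tumours from -2.54 to -1.59.

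Counts of called probe sets were recomputed under alternatives chosen after seeing the data. With the arrays of the compared sets alone, the Nos2 count fell to 0 in kidney, against 6 as reported, and the Nos2 and Arg1 counts in 16.113 tumours were 0, against 2 each. With array weights the counts in 16.113 tumours were 0 for both genes, that of the tumour minus kidney response was 2 against 1, and that of MCA313 tumours at 48 h was 1 against 0, as with the trended and robust prior. The Arg1 count was 1 with probe sets filtered. The replicate block gave 1 Arg1 probe set in 16.113 tumours and changed no other call of the 3 genes. Deviations of same-number samples within a set had r from -0.144 to 0.113 over 14 pairs, median -0.039, against 0.027 for other pairs. In groups of 2 arrays the deviations from the mean mirror each other, so these r cannot show whether samples were paired. Tumour and kidney arrays of J558L bearers with the same number lie in different sets. They were neither blocked nor checked together, and whether they came from the same animal is not given. With each array left out, Nos2 counts ran from 5 to 8 in kidney, from 0 to 5 in 16.113 tumours and from 1 to 4 for the tumour minus kidney response, and the Arg1 count from 0 to 2. The Nos2 count of 4 came without replicate 1 of kidney at 24 h. The cause was not tested. Numbers of all genes called ranged from 1 to 174 in MCA313 tumours against 0 h (30 and 60 as reported), from 3 to 127 in J558L tumours (24), from 67 to 277 in J558L kidney (139) and from 34 to 565 in 16.113 tumours (323). They ranged from 0 to 7 between 48 h and 24 h (3) and from 0 to 28 over the differences of responses (1, 0 and 0). Levels near or below the array median limit the size of a change, as background was not measured.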
